A study of Mus musculus with 9 samples.

Results

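The RNA of the retinal pigment epithelium (RPE) was compared between aged mice given vutiglabridin and aged control mice. Vutiglabridin is a small molecule derived from glabridin, a flavonoid of liquorice, and the series title gives its route as oral. The comparison used 6 of the 9 libraries of the series, chosen by their labels: 3 from wild-type mice aged 24 months after 6 months of vutiglabridin, and 3 from untreated wild-type mice aged 24 months. The other 3 libraries, from untreated wild-type mice aged 9 months, served to estimate the spread between libraries. They also entered the choice of tested genes and the scaling, and are not compared here. Of the 40202 genes in the deposited count table, 25273 had enough counts to be tested. The series title names mitochondrial dysfunction and senescence of the RPE as the aim of the work, and genes of both were therefore counted here. The sources used here give neither the strain, sex, dose, time of day at dissection nor a sequencing batch. They do not say that the libraries came from separate animals, so p-values measure only the spread between these samples.

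The RPE is the pigmented cell layer behind the photoreceptors, which regenerates the chromophore of the visual pigment, engulfs shed outer segments and forms the outer blood-retinal barrier. Interferon gamma, a cytokine of T and NK cells, raises the genes of a family of large GTPases that attack intracellular microbes, and the genes of MHC antigen presentation. Immediate early genes such as Fos and Egr1 encode transcription factors that are switched on within minutes of a stimulus, and the glucocorticoid receptor raises another set of genes when corticosteroid levels are high.

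Total counts were 45534152, 47368767 and 53239652 in treated replicates 1, 2 and 3, against 55713593, 50458875 and 48715263 in aged control replicates 1, 2 and 3. All 25 genes of RPE identity and the visual cycle that were checked were detected in every library, with summed levels of 25269, 15230 and 19315 CPM in the treated libraries, against 24271, 26398 and 22700 CPM in the aged controls, where CPM are counts scaled to a library of 1000000. Rpe65, the retinoid isomerase of the RPE, stood at 2761, 1999 and 2104 CPM in the treated libraries, against 2328, 2431 and 2075 CPM in the aged controls. The libraries also held RNA of other tissue, so RPE names here the dissected sample. In such bulk RNA, fewer cells of a type and less RNA per cell cannot be told apart.

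The treated libraries differed among themselves more than the aged controls did. The median within-group SD of log2 CPM over all tested genes was 0.246 in the treated group and 0.112 in the aged control group. Treated replicate 2 stood furthest from the rest. Among 12136 genes with a mean of at least 5 CPM, 131 lay at least 1 log2 unit beyond all 5 other aged libraries in this library, against 25 in treated replicate 1 and 28 in treated replicate 3. Krt6a, a keratin gene among its largest gaps, was at 0.256, 60.1 and 5.83 CPM in treated replicates 1, 2 and 3, against 0.141, 0 and 3.15 CPM in aged control replicates 1, 2 and 3. Among the largest gaps of treated replicate 3 was Nrxn3, a synaptic adhesion gene, which stood at 31.3, 34.6 and 142 CPM in treated replicates 1, 2 and 3, with at most 49.0 CPM in the aged controls. Adgrb3, an adhesion receptor gene, and Esrrb, a nuclear receptor gene of rods, were at 32.9 and 22 CPM in treated replicate 3, with at most 12.4 and 7.12 CPM in the aged controls. Treated replicate 1 had the mitochondrial leucyl-tRNA synthetase gene Lars2 at 304 CPM, against 41.4 to 47.5 CPM in the aged controls, and AY036118 at 920 CPM, against 102 to 149 CPM. Apol11b, an apolipoprotein L gene, was at 0 CPM in treated replicate 1, 29.4 CPM in treated replicate 2 and 0.592 CPM in treated replicate 3.

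The edgeR quasi-likelihood test called 1098 genes at an adjusted p under 0.05, which is 4.34% of those tested. Of these, 599 (2.37%) were higher in treated than in aged control RPE and 499 (1.97%) were lower. In all, 8132 genes (32.2%) had no overlap between the 3 treated and the 3 aged control libraries, 14.7% higher and 17.5% lower, so an absence of overlap was common. The count of called genes depended on single libraries. It was 634, 561 (2.18% of those tested) and 4092 (15.9%) without treated replicates 1, 2 and 3, and 35, 25 and 63 without aged control replicates 1, 2 and 3. It was 345 and 617 without young control replicates 2 and 3, 178 (0.72%) when only the 6 aged libraries were fitted, and 892 (3.48%) without both treated replicate 2 and young control replicate 1. DESeq2 called 3085 genes (12.2%). The fitted direction of the 1098 genes was the same in all of these fits where they were tested. None of these genes overlapped between the 3 treated and the 3 aged control libraries, so that was nearly fixed in advance.

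A difference was said to hold in a treated library when that library lay beyond all 3 aged controls, in the fitted direction, and at least 1.5-fold from their geometric mean. Of the 599 called genes that were higher, 212 (35.4%) held in all 3 treated libraries, 207 in 2, 95 in 1 and 85 in none. Of the 499 that were lower, 204 (40.9%) held in all 3, 137 in 2, 86 in 1 and 72 in none. Over all tested genes, 984 (3.89%) held in all 3, 2.14% higher and 1.75% lower. The genes that held in 2 libraries did so mostly in treated replicates 1 and 2: 172 of 207 among those higher, and 85 of 137 among those lower. Treated replicate 3 held 258 of the 599 higher genes, against 426 in treated replicate 1 and 461 in treated replicate 2. It held 269 of the 499 lower genes, against 339 in treated replicate 1 and 364 in treated replicate 2. At 2-fold, 72 higher and 76 lower genes held in all 3.

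**Figure D1:**
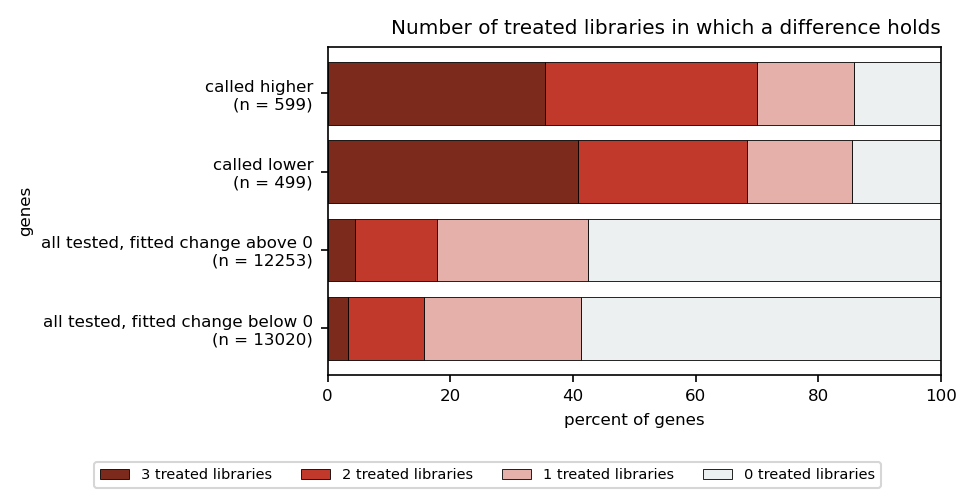
Share of genes (percent, horizontal axis) whose difference from the aged controls held in 3, 2, 1 or 0 treated libraries, for called genes and for all tested genes by fitted direction. Of the called genes 35.4% of those higher and 40.9% of those lower held in all 3 treated libraries.

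The median log2 difference from the aged controls over the called higher genes was 0.77, 0.94 and 0.51 in treated replicates 1, 2 and 3. Over the called lower genes it was -0.77, -0.80 and -0.62. Treated replicate 3 thus had the smallest median in both directions, by more among the higher genes. When each treated library was set alone against the aged controls, the same test called 2904 genes (11.5%) for treated replicate 1, 5692 (22.5%) for treated replicate 2 and 323 (1.28%) for treated replicate 3. The calls for treated replicate 1 were 6.77% of genes higher and 4.72% lower, those for treated replicate 2 11.2% higher and 11.3% lower, and those for treated replicate 3 0.815% higher and 0.463% lower. These 3 fits assume that a lone library varies like the control libraries. Of the 599 called higher genes, 501, 567 and 105 were called in the same 3 fits, and of the 499 called lower genes, 328, 421 and 79.

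Only 24 genes (0.095% of those tested) kept their call whichever of the 9 libraries was left out; 10 were higher and 14 lower in treated RPE. This set was read off after the values were seen. All 24 held in each of the 3 treated libraries, which the way the set was chosen made likely. For 214 others, the call was lost without each of the 3 aged controls and kept without each other library. Of the lower genes, Tgtp1, Tgtp2, Igtp, Irgm2, Gbp7, Gbp8, Gvin3 and Ifi47 encode interferon-inducible GTPases, and Ciita encodes the activator of MHC class II genes. The other lower genes included Hpgd, Rab38, Gm8995 and Gm42074. The higher ones were Osm, Adam8, Rgcc, Ccn2, Brinp1, Ankrd33b, Atp8b1, Galnt15, Ecm1 and Gm34321.

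Adam8, a membrane metalloproteinase of activated leukocytes, stood at 56.1, 55.9 and 38.8 CPM in treated replicates 1, 2 and 3, against 10.2, 10.1 and 11.9 CPM in the aged controls. The groups did not overlap, as in every called gene (log2 fold change 2.23 ± 0.15 (SE, n = 3 per group), adjusted p = 0.000448). The deposited span of Adam8 overlaps another gene, and whether strand was used in counting is not stated. Osm, which encodes oncostatin M, a cytokine of the Il6 family, was at 7.72, 8.79 and 5.22 CPM in treated libraries, against 1.04, 0.994 and 1.32 CPM in aged controls (2.69 ± 0.27, adjusted p = 0.00393). Its groups were far apart, and the spread within each was small beside the gap. Hpgd, which inactivates prostaglandins, was at 4.35, 6.58 and 6.66 CPM in treated libraries, against 15.9, 17.2 and 15.6 CPM in aged controls (-1.47 ± 0.17, adjusted p = 0.00468). Rab38, a small GTPase that delivers pigment enzymes to melanosomes, was at 79.2, 66.4 and 62.5 CPM in treated libraries, against 126, 126 and 132 CPM in aged controls (-0.88 ± 0.10, adjusted p = 0.00409). Ccn2, a matricellular growth factor gene, was at 745, 860 and 590 CPM in treated libraries, against 303, 322 and 277 CPM in aged controls (1.28 ± 0.13, adjusted p = 0.00409). For these 3 genes too, the lowest library of the higher group lay well above the highest of the lower group.

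**Figure D2:**
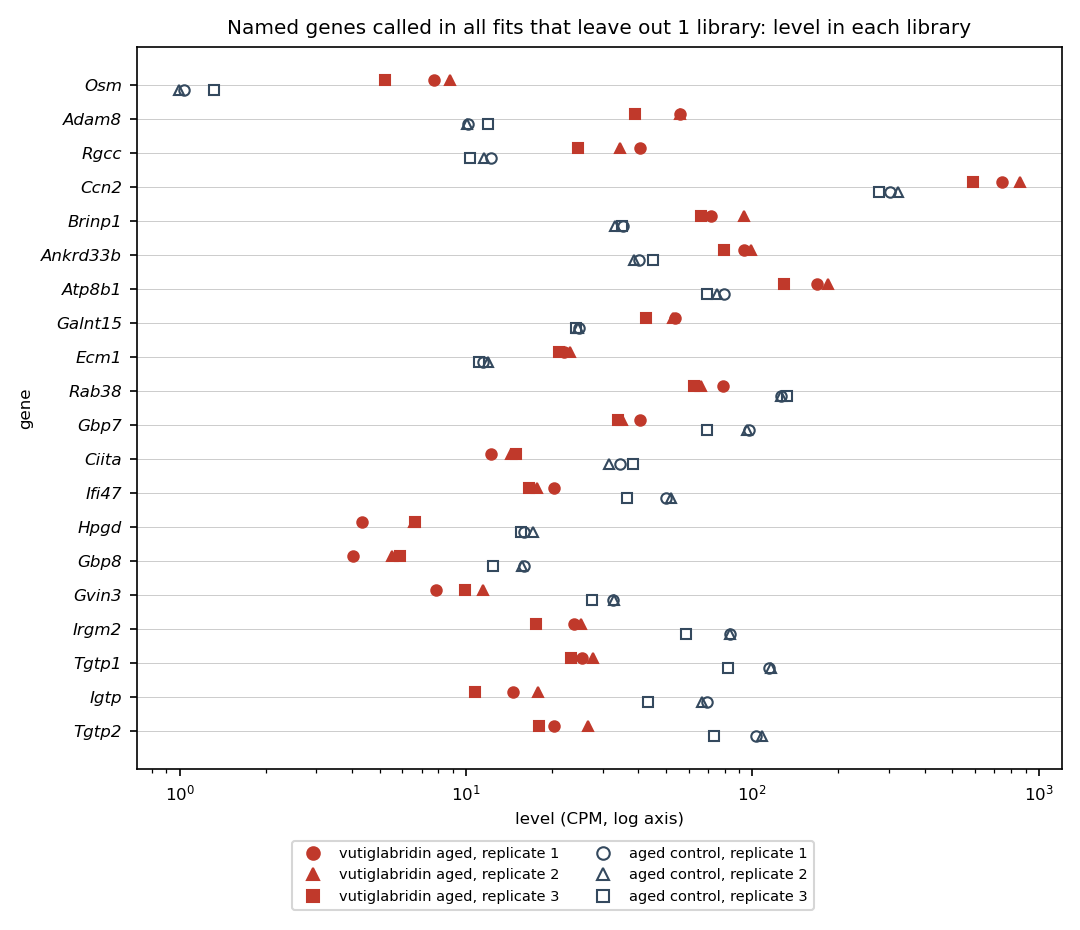
Level (CPM, log axis) in each treated library (filled) and each aged control library (open) of named genes that stayed called whichever library was left out. No gene shows overlap between the groups, which was so for every called gene. Adam8 is at 38.8 to 56.1 CPM in treated libraries and 10.1 to 11.9 CPM in aged controls.

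Nearly all interferon-inducible GTPase genes measured were lower in treated RPE. The list held the immunity-related GTPases (Irgm1, Irgm2, Igtp, Iigp1, Tgtp1, Tgtp2, Ifi47), the guanylate-binding proteins (Gbp genes) and the very large GTPase Gvin1. Of the 17 measured members 16 were called lower and none higher, with a median log2 fold change of -1.51, beside -0.01 over all tested genes. Igtp was at 14.7, 17.9 and 10.8 CPM in treated libraries, against 69.6, 66.9 and 43.2 CPM in aged controls (-2.05 ± 0.23, adjusted p = 0.00468). Irgm2 was at 23.8, 25.2 and 17.6 CPM in treated libraries, against 83.3, 83.3 and 58.5 CPM in aged controls (-1.76 ± 0.17, adjusted p = 0.00297). In both genes treated replicate 3 was the lowest treated library, and aged control replicate 3 the lowest aged control. Gbp4 had the largest fall of the list, at 10.8, 19.7 and 9.03 CPM in treated libraries, against 88.8, 77.4 and 54.4 CPM in aged controls (-2.48 ± 0.29, adjusted p = 0.0072). Its call was lost without aged control replicate 2, with an adjusted p of 0.053. Iigp1 was at 23.5, 30.2 and 10.1 CPM in treated libraries, against 105, 104 and 66.2 CPM in aged controls (-2.11 ± 0.36, adjusted p = 0.0241), and its call was lost without treated replicate 1 or any aged control.

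The difference held in each treated library for nearly the whole list: in 16 members in treated replicate 1, and in all 17 in both treated replicates 2 and 3. The median difference of the list from the aged controls was -1.53, -1.40 and -1.74 in treated replicates 1, 2 and 3. Set alone against the aged controls, the 3 libraries gave 15, 17 and 14 members called lower. The exception was Gbp3, at 80.5, 29.9 and 26.7 CPM in treated replicates 1, 2 and 3, against 69.8, 77.9 and 51.0 CPM in the aged controls. It was not called in the comparison of the groups (-0.54 ± 0.40, adjusted p = 0.438), since treated replicate 1 lay above all 3 aged controls. The count of members called lower was 9 and 7 without aged control replicates 1 and 2, and 13 to 16 without any other single library, while the list median ranged from -1.71 to -1.42. Tgtp1 and Tgtp2 are near copies, and so are Gvin1, Gvin2 and Gvin3, so how the reads divide between them is not certain. In the deposited coordinates Igtp spans 58090382 to 58098418 and Irgm2 58105803 to 58113609 on chromosome 11, and Gbp7 spans 142236097 to 142255912 on chromosome 3.

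The bases just upstream of these genes show what the family shares in sequence. Of the 17 members, 10 had a promoter window in RefSeq (GRCm38.p6), and 9 of these (90.0%) held the core of the interferon-stimulated response element, TTTC followed after any 2 bases by TTTC, in the 250 bases before the start, on either strand. The same core was found in 3.46% of 27025 genes with a promoter window of this length, where a gene counted if any of its windows matched. The gamma-activated site, TTCNNNGAA, was found for 6 of the 10 members, against 8.13% of all genes with a window. No match of one motif shared a base with a match of the other. Of 19 MHC class I pathway genes with a window, 3 held the interferon-stimulated response element core. Ifi47 held neither motif in its window. The sequences below show 5 of the windows around the response element, which is in capitals. In Igtp, Irgm2 and Tgtp1 the element lies on the other strand, so its reverse complement is in capitals, and the bases before it as printed are much alike. The bases after it are much alike in Igtp and Irgm2, but differ in Tgtp1. In Gbp2 and Gbp7 it reads in the direction of the gene.
Igtp, chr11:58199497-58199555 (+): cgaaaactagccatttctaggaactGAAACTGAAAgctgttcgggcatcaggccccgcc
Irgm2, chr11:58214888-58214947 (+): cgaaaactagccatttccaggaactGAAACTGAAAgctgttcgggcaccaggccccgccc
Tgtp1, chr11:48992289-48992348 (-): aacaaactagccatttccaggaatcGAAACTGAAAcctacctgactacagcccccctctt
Gbp2, chr3:142620579-142620638 (+): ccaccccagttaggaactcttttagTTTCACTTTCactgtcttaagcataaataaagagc
Gbp7, chr3:142530258-142530317 (+): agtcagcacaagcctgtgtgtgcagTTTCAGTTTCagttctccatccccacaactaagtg
The element begins 34, 64, 77, 59 and 53 bases before the annotated start of Igtp, Irgm2, Tgtp1, Gbp2 and Gbp7. A match of letters is a description and does not show that a factor is bound.

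The genes of MHC class II presentation, in which dendritic cells, macrophages and B cells display peptides to helper T cells, were lower as well. Of 15 measured members 7 were called lower and none higher, with a median log2 fold change of -1.12. Ciita, the master activator of the class, was at 12.2, 14.4 and 15 CPM in treated libraries, against 34.7, 31.6 and 38.3 CPM in aged controls (-1.33 ± 0.13, adjusted p = 0.00297). Cd74, the invariant chain that escorts class II molecules, was at 28.2, 57.9 and 34.7 CPM in treated libraries, against 128, 117 and 145 CPM in aged controls (-1.69 ± 0.24, adjusted p = 0.0154). H2-Aa, an alpha chain, was at 26.2, 56.6 and 30.8 CPM in treated libraries, against 121, 118 and 120 CPM in aged controls (-1.66 ± 0.27, adjusted p = 0.0209). In both Cd74 and H2-Aa, treated replicate 2 lay between the other treated libraries and the aged controls. The deposited spans of Ciita and Cd74 each overlap another gene. For the list, the median difference was -1.50, -0.51 and -1.21 in treated replicates 1, 2 and 3. Without aged control replicate 1, 2 or 3 a single member was called in each fit, and 5 to 8 without any other library. Rfx5 and Rfxap, subunits of the complex that recruits Ciita, were at -0.25 ± 0.11 and -0.05 ± 0.15, and neither was called.

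In the MHC class I pathway, 12 of 22 measured members were called lower and none higher, with a median of -0.62. Those with the smallest p served peptide supply. Tap1, a subunit of the peptide transporter, was at 11.6, 17.6 and 14.3 CPM in treated libraries, against 40.6, 40.6 and 31.8 CPM in aged controls (-1.38 ± 0.19, adjusted p = 0.00954). Psmb9, a subunit of the immunoproteasome, was at 4.40, 6.80 and 4.16 CPM in treated libraries, against 15.4, 14.0 and 12.5 CPM in aged controls (-1.45 ± 0.19, adjusted p = 0.00911). Neither gene's groups overlapped, and in both treated replicate 2 was the highest of its group. H2-K1, a class I heavy chain gene, was at 150, 191 and 125 CPM in treated libraries, against 241, 227 and 231 CPM in aged controls (-0.58 ± 0.15, adjusted p = 0.0556), and B2m, the light chain gene of class I molecules, had -0.48 ± 0.14 (adjusted p = 0.0679). Differences of this list held in 12, 8 and 15 members in treated replicates 1, 2 and 3. The count called lower was 1, 0 and 4 without aged control replicates 1, 2 and 3, and 6 and 7 without treated replicate 1 and young control replicate 2. In the fit without aged control replicate 2 the list median was -0.60.

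Among 19 interferon receptors, Stat and Irf factors, 3 were called lower, among them Irf1 and Irf8, and Stat3 was called higher. Irf1, an interferon-induced transcription factor gene, was at 25, 34.6 and 20.4 CPM in treated libraries, against 55.7, 53.3 and 44.9 CPM in aged controls (-0.94 ± 0.17, adjusted p = 0.0234). The difference in Irf1 did not hold in treated replicate 2, which lay less than 1.5-fold below the controls, and its call was lost without treated replicate 1 or any aged control. Its promoter window is shown because it holds the gamma-activated site, in capitals, 90 bases before the annotated start.
Irf1, chr11:53769899-53769957 (+): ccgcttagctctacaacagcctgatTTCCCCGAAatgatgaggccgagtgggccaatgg
The interferon gamma receptor subunit genes Ifngr1 and Ifngr2 were not called (0.28 ± 0.14 and 0.05 ± 0.12, adjusted p = 0.262 and 0.831). Of 18 effector genes known from type I interferon, such as the Ifit and Oas antiviral genes, 2 were called lower, Cmpk2 and Ifit2, with a list median of -0.38. Over all tested genes 1.97% were called lower and 2.37% higher. Ifit1 was at 32.7, 16.4 and 18.1 CPM in treated libraries, against 27.2, 31.9 and 19.2 CPM in aged controls, so its groups overlapped. The Cmpk2 call was lost without aged control replicate 1 or 2, and the Ifit2 call without 7 of the 9 libraries, all but treated replicate 3 and young control replicate 1.

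Markers of B and plasma cells were lower as well, while those of macrophages and microglia went both ways. Of 13 markers of B and plasma cells 5 were called lower, and their summed level was 31.9, 32.7 and 33.7 CPM in treated libraries, against 56.1, 52.0 and 43.5 CPM in aged controls. Ighm, the heavy chain of IgM, was at 1.30, 3.13 and 2.22 CPM in treated libraries, against 11.5, 8.13 and 5.05 CPM in aged controls (-1.89 ± 0.34, adjusted p = 0.0236). Its deposited span overlaps that of Ighd. Pax5, the B cell identity factor, was at 0.512, 0.858 and 1.11 CPM in treated libraries, against 3.97, 3.86 and 2.21 CPM in aged controls (-2.01 ± 0.40, adjusted p = 0.0301). The other 3 called were Cd79a, Ms4a1 and Ighd, all at or below 1.21 CPM in every library. Igkc and Jchain, markers of plasma cells, were not called (-0.20 ± 0.56 and 0.06 ± 0.48). The 5 calls became 0, 0 and 1 without aged control replicates 1, 2 and 3, 2 each without treated replicate 1, treated replicate 2 or young control replicate 2, and 1 among genes that overlap no other gene. The 17 markers of T, NK and cytotoxic cells summed to 21.7, 25.8 and 22.8 CPM in treated libraries, against 30.1, 28.8 and 30.5 CPM in aged controls. Gzma, a granule protease gene, was the single one called by edgeR, while DESeq2 called 3 lower. Over all tested genes edgeR called 1.97% lower and 2.37% higher, and DESeq2 called 12.2% in either direction. A single call in a marker list of this size is not far from that share. Gzma was at 0.0233, 0.150 and 0.259 CPM in treated libraries, against 1.16, 1.42 and 0.479 CPM in aged controls, and its span overlaps another gene. Among the fits without 1 library its call was kept without treated replicate 3 or young control replicate 1. The 20 markers of macrophages and microglia summed to 1698, 1964 and 1424 CPM in treated libraries, against 1809, 1751 and 1655 CPM in aged controls, ranges that overlapped. Their list median was -0.09, with 8 members above 0 and 12 below. Aif1 was called lower and Cd14 higher. Cd14 was at 55.3, 74.6 and 12.2 CPM in treated libraries, against 6.75, 5.40 and 5.79 CPM in aged controls. Cx3cr1, the fractalkine receptor of microglia and monocytes, was at 2.09, 7.08 and 11.2 CPM in treated libraries, against 26.7, 25.7 and 23.1 CPM in aged controls, without a call (-1.88 ± 0.49, adjusted p = 0.0669). Ccr2, the monocyte chemokine receptor, was at 5.95, 8.84 and 8.55 CPM in treated libraries, against 22.1, 25.7 and 20.2 CPM in aged controls (-1.54 ± 0.27, adjusted p = 0.0236), and its call was lost without any 1 aged control. Ccr2 is not in the macrophage and microglia marker list and was named after its values were seen. The 13 measured markers of neutrophils and mast cells had a median of 0.38, with 1 called higher and 1 lower. The part of immune cell content in the interferon and MHC differences was not tested.

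Some early response genes were higher in treated RPE, unequally among the libraries. The 11 AP-1 factors had a median log2 fold change of 1.32, with 3 called higher by edgeR (Fosl1, Fosl2 and Maff) and 8 by DESeq2. The 25 Egr, Nr4a, Klf and Dusp early genes had a median of 1.69, with 3 called higher by edgeR (Dusp1, Myc and Klf4) and 17 by DESeq2. By library, the median difference of the AP-1 list was 1.17, 2.25 and 0.43 in treated replicates 1, 2 and 3, and that of the early genes 1.05, 2.57 and 0.22. Set alone against the aged controls, treated replicates 1, 2 and 3 gave 7, 10 and 1 AP-1 factors and 15, 19 and 0 early genes called higher. Without treated replicate 3, 8 AP-1 factors and 16 early genes were called in the comparison of the groups, in a fit that called 15.9% of all tested genes. Without any 1 of the aged controls, none of either list was called. Without treated replicate 1, treated replicate 2 or any young control, 0 to 2 AP-1 factors and 0 to 3 early genes were called. Without treated replicate 2 the median of the early genes was 0.61, with 3 called.

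Fos was at 45.7, 228 and 24.9 CPM in treated replicates 1, 2 and 3, against 8.32, 9.61 and 13.3 CPM in the aged controls. Every treated library lay above every control, but the treated values spanned so wide a range that the gene was not called (3.25 ± 0.86, adjusted p = 0.0764). Fosl2, another AP-1 subunit, was at 153, 264 and 45.2 CPM in treated libraries, against 27.3, 26.7 and 28.5 CPM in aged controls (2.48 ± 0.54, adjusted p = 0.0482); among the fits without 1 library it was called in the one without treated replicate 3. Dusp1, a phosphatase that switches off MAP kinases, was at 38.1, 92.1 and 22.5 CPM in treated libraries, against 10.3, 10.9 and 13.3 CPM in aged controls (2.15 ± 0.47, adjusted p = 0.0452). Maff, a small Maf factor, was at 19.3, 39.8 and 13.6 CPM in treated libraries, against 5.78, 6.57 and 6.54 CPM in aged controls (1.94 ± 0.35, adjusted p = 0.0269). In all 4 genes treated replicate 2 was highest and treated replicate 3 lowest of its group, and all 4 differences held in each treated library. Egr1 was at 41.2, 115 and 52.8 CPM in treated libraries, against 16.4, 19.1 and 21.9 CPM in aged controls (adjusted p = 0.0726). Nr4a1, an orphan nuclear receptor gene, was at 37.9, 139 and 19.1 CPM in treated libraries, against 14.1, 18.7 and 23.2 CPM in aged controls, so its treated replicate 3 lay within the control range (adjusted p = 0.15). Fos, Egr1 and Nr4a1 were named after their values were seen. The Maff call was lost without any aged control or young control replicate 2. Dusp1 stayed called without treated replicate 2 or 3 and in no other fit without 1 library.

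Among the early genes' promoters, no motif searched was in as many windows as the response element was in those of the GTPases. The AP-1 site TGANTCA was found for 0 of 10 AP-1 factor genes with a window, against 7.82% of all genes with a window. The cyclic AMP response element TGACGTCA was found for 1 of these 10 AP-1 factor genes and 2 of 18 early genes with a window, against 1.77% of all. Maff and Dusp1, called here, are shown with that element in capitals, which begins 29 and 143 bases before their annotated starts.
Maff, chr15:79347466-79347519 (+): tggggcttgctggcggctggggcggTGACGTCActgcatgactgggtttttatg
Dusp1, chr17:26508583-26508640 (-): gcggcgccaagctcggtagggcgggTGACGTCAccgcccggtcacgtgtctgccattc

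Cytokine genes were also unequal among the treated libraries. Of 22 NF-kB targets and acute cytokines 6 were called higher and none lower by edgeR, and 11 higher by DESeq2, with a median of 0.56. The 6 were Osm, Il1rn, Lif, Ptgs2, Tnfaip3 and Nfkbia. Ptgs2, the inducible cyclooxygenase, was at 101, 223 and 22.2 CPM in treated libraries, against 9.86, 9.12 and 7.70 CPM in aged controls (3.70 ± 0.74, adjusted p = 0.0399). Lif, a cytokine of the Il6 family, was at 9.72, 5.62 and 1.39 CPM in treated libraries, against 0.653, 0.760 and 0.658 CPM in aged controls (3.01 ± 0.71, adjusted p = 0.0491). Both differences held in each treated library, with treated replicate 3 much nearer the controls. Il6 was at 19.7, 51.8 and 0.333 CPM in treated libraries, against 0.106, 0.0975 and 0.160 CPM in aged controls, and was not called (adjusted p = 0.0566). Socs3, the feedback inhibitor that Il6 signals induce, was at 78.7, 127 and 13 CPM in treated libraries, against 10.7, 10.6 and 9.26 CPM in aged controls, and was not called either (adjusted p = 0.0634). Osmr, the receptor of oncostatin M, was at 594, 756 and 241 CPM in treated libraries, against 234, 248 and 221 CPM in aged controls, so treated replicate 3 lay within the control range (1.18 ± 0.33, adjusted p = 0.0761). Tnf was at 0.581, 1.03 and 0.814 CPM in treated libraries, against 1.71, 1.75 and 1.32 CPM in aged controls, also without a call (adjusted p = 0.193). In the fit without treated replicate 3, which called 15.9% of all tested genes, the 6 calls became 15. They became 1 without any 1 of the aged controls, treated replicate 2 or young control replicate 2, and 2 without treated replicate 1 or young control replicate 3. Of the 6 genes, Osm stayed called in all of these fits.

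Rgs1, a brake on G protein signals in leukocytes, was at 114, 91.5 and 75.3 CPM in treated libraries, against 8.87, 9.53 and 12.2 CPM in aged controls (3.2 ± 0.56, adjusted p = 0.03). It was among the 12 largest rises of called genes, provisional gene models left out, that held in each treated library, and unlike Ptgs2 its 3 treated libraries were close to each other. Its call was lost without treated replicate 1 or 2 or any aged control. Others among the 12 were Slc10a6, Tnfrsf12a, Cd14, Nfil3, Apol8, Treh and Il1r2. The 12 largest such falls were Ighd, Tlr11, Ccl12, Gzma, Gbp4, Rnase6, Phf11a, Tgtp2, Iigp1, Ly6i, Igtp and Tgtp1. Of the rises, Slc10a6 and Tnfrsf12a stayed called in 1 of the 9 fits without 1 library, that without treated replicate 3. Treh was at 0.372, 1.57 and 1.20 CPM in treated libraries (adjusted p = 0.0499). Of the falls, Tlr11, Phf11a and Ly6i reached at most 1.68, 2.59 and 1.16 CPM in any aged library. Their calls were lost without any 1 aged control. Of the 20 chemokine genes Ccl12, a monocyte attractant, was the single one called by edgeR, at 0.116, 0.279 and 0.333 CPM in treated libraries, against 1.62, 2.63 and 1.16 CPM in aged controls (-2.86 ± 0.43, adjusted p = 0.0148), a call lost without aged control replicate 1 or 2. Over all tested genes edgeR called 1.97% lower, and a single call in 20 genes is not far from that share. DESeq2 called 6 chemokine genes higher and 1 lower, beside 12.2% of all tested genes in either direction. Without treated replicate 3 edgeR called 10 higher, in a fit that called 15.9% of all tested genes.

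Some targets of the glucocorticoid receptor were higher too. Of 18 measured members 6 were called higher and none lower by edgeR, and 12 higher by DESeq2, with a median of 1.30. The 6 were Fkbp5, Tsc22d3, Per1, Dusp1, Cdkn1a and Klf9. Except in Cdkn1a, the difference of these genes held in each treated library. Fkbp5, a co-chaperone of the receptor, was at 209, 248 and 115 CPM in treated libraries, against 52.1, 49.5 and 55.1 CPM in aged controls (1.87 ± 0.25, adjusted p = 0.0131). Per1 was at 61.0, 88.2 and 66.5 CPM in treated libraries, against 15.9, 16.6 and 18.5 CPM in aged controls (2.08 ± 0.27, adjusted p = 0.0108). Klf9 was at 231, 292 and 202 CPM in treated libraries, against 104, 108 and 111 CPM in aged controls (1.16 ± 0.14, adjusted p = 0.006). Tsc22d3, which encodes the anti-inflammatory protein GILZ, was at 134, 177 and 91.6 CPM in treated libraries, against 54.0, 55.2 and 50.3 CPM in aged controls (1.33 ± 0.22, adjusted p = 0.0209). In all 4, treated replicate 2 was the highest treated library. Zbtb16, a transcription factor gene and another receptor target, was at 278, 226 and 88.9 CPM in treated libraries, against 47.4, 48.2 and 47.5 CPM in aged controls, and was not called (adjusted p = 0.0712). Nr3c1, the receptor gene itself, was at -0.08 ± 0.10 (adjusted p = 0.619). The list median was 1.35, 1.52 and 0.30 in treated replicates 1, 2 and 3. The 6 calls became 0, 0 and 1 without aged control replicates 1, 2 and 3, 15 without treated replicate 3, and 4 to 5 without any other library. The fit without treated replicate 3 called 15.9% of all tested genes.

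**Figure D3:**
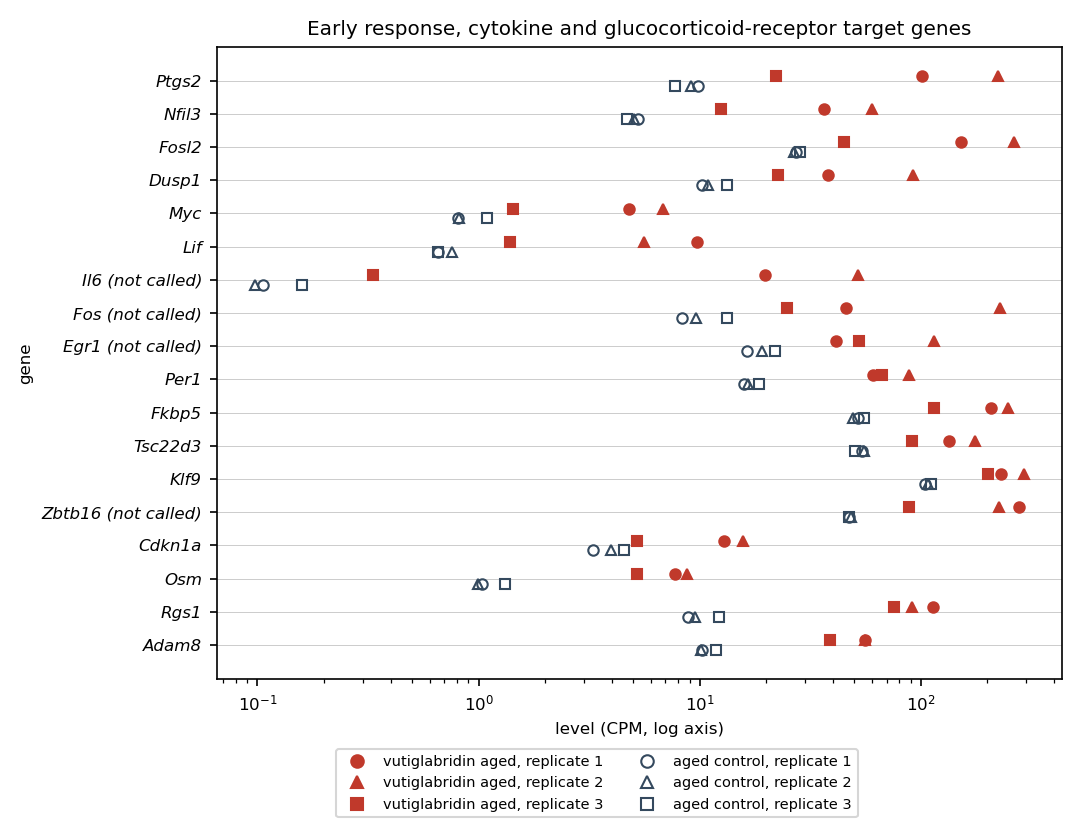
Level (CPM, log axis) in each treated library (filled) and each aged control library (open) of early response, cytokine and glucocorticoid-receptor target genes, with genes that missed the threshold marked as not called. Treated replicate 3 lies nearest the aged controls for Ptgs2 and Il6, at 22.2 and 0.333 CPM, and well above them for Per1 and Klf9, at 66.5 and 202 CPM.

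Per1 also belongs to the circadian clock. Of 18 clock genes 4 were called higher and 1 lower, with a median of 0.13. Over all tested genes 2.37% were called higher and 1.97% lower. Per2 was at 82.9, 76.3 and 80.0 CPM in treated libraries, against 37.4, 39.3 and 39.8 CPM in aged controls (1.04 ± 0.15, adjusted p = 0.0137). Cry1, a repressor that pairs with the Per proteins, was at 38.9, 53.5 and 28.7 CPM in treated libraries, against 16.4, 16 and 15.4 CPM in aged controls (1.34 ± 0.22, adjusted p = 0.0188). Nfil3, a repressor of the clock's output, was at 36.7, 60.0 and 12.5 CPM in treated libraries, against 5.27, 5.07 and 4.69 CPM in aged controls (2.86 ± 0.50, adjusted p = 0.0274). Nr1d1, which encodes the repressor REV-ERB alpha, was at 32.7, 30.6 and 37.6 CPM in treated libraries, against 49.2, 44.3 and 51.3 CPM in aged controls (-0.52 ± 0.10, adjusted p = 0.0286). The Per2 levels were nearly equal in the 3 treated libraries, and the Cry1 and Nfil3 levels were not. Arntl and Clock, the activators, were at -0.20 ± 0.14 and 0.08 ± 0.08 and were not called. None of the 5 calls was made without any 1 of the aged controls. The time of dissection is not given in the sources used here, so its part in the clock genes was not tested.

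Genes of the extracellular matrix were split. Of 22 measured members 6 were called higher: Fn1, Ccn2, Tnc, Thbs1, Col4a1 and Col4a2. Over all tested genes 2.37% were called higher. Fibronectin (Fn1) was at 433, 608 and 387 CPM in treated libraries, against 206, 204 and 199 CPM in aged controls (1.23 ± 0.16, adjusted p = 0.0072). Thbs1, the gene of thrombospondin, was at 1290, 1451 and 992 CPM in treated libraries, against 506, 482 and 406 CPM in aged controls (1.42 ± 0.19, adjusted p = 0.00887). Tnc, the gene of tenascin C, was at 173, 226 and 135 CPM in treated libraries, against 70.3, 58.4 and 66.4 CPM in aged controls (1.45 ± 0.17, adjusted p = 0.00611). These 3 genes and Ccn2 held in each treated library, while Col4a1 held in 1 and Col4a2 in 2. The fibrillar collagen genes Col1a1, Col1a2 and Col3a1 were at 0.06 ± 0.28, 0.09 ± 0.19 and 0.03 ± 0.15, with no call. The 6 calls became 2, 1 and 3 without aged control replicates 1, 2 and 3, and 4 without young control replicate 2.

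Of 20 genes of senescence and p53 arrest, Cdkn1a, which encodes the cell cycle inhibitor p21, was the single one called by edgeR, and it was higher, while DESeq2 called 5 higher and 1 lower. Over all tested genes edgeR called 2.37% higher, and DESeq2 called 12.2% in either direction. Cdkn1a was at 12.9, 15.8 and 5.18 CPM in treated libraries, against 3.28, 3.96 and 4.57 CPM in aged controls (1.52 ± 0.34, adjusted p = 0.0398). The difference did not hold in treated replicate 3, and among the fits without 1 library the call was kept in the one without treated replicate 3, where 7 genes of the list were called higher. In that fit 15.9% of all tested genes were called, in either direction. Cdkn2a, which encodes p16, had 7, 23 and 5 counts in treated libraries, against 11, 6 and 5 counts in aged controls, too few to be tested. Of 28 secretory factors of senescent cells 4 were called higher and none lower by edgeR, among them Plaur, Igfbp3 and Serpine2, and DESeq2 called 8 higher and 1 lower. Igfbp3, a binding protein of insulin-like growth factors, was at 90.9, 128 and 95.4 CPM in treated libraries, against 52.8, 46.7 and 41.2 CPM in aged controls (1.16 ± 0.14, adjusted p = 0.00626), and lost its call without aged control replicate 2. The 4 secretory calls became 1, 0 and 1 without aged control replicates 1, 2 and 3 and 2 without young control replicate 2. They became 10 without treated replicate 3, the fit that called 15.9% of all tested genes. Glb1, the gene of senescence-associated beta-galactosidase, was not called (-0.11 ± 0.11, adjusted p = 0.569).

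Of the 13 protein-coding genes of the mitochondrial genome ND6, a subunit of complex I, was called higher by edgeR, at 31.0, 31.3 and 33.6 CPM in treated libraries, against 22.3, 17.7 and 20.3 CPM in aged controls (0.67 ± 0.11, adjusted p = 0.0188). Its call was lost without any 1 aged control. ND6 lies on the strand opposite to most mitochondrial genes, and its span overlaps another gene in the table. Over all tested genes 2.37% were called higher. All 13 genes of the mitochondrial genome had a fitted change above 0, with a median of 0.22. The 36 nuclear genes of complex I had no call by edgeR, 9 at an unadjusted p under 0.05 and 1 called lower by DESeq2. Their median was -0.24, with 34 below 0. On the lower side 17 of the 36 had no overlap between the groups, against 4416 of all 25273 tested genes (17.5%). The complex I median difference was -0.10, -0.29 and -0.32 in treated replicates 1, 2 and 3. In aged control replicates 1, 2 and 3 it was -0.03, 0.08 and -0.07. The fall held in 0, 3 and 4 members in treated replicates 1, 2 and 3. The 30 nuclear genes of complexes II to V had a median of -0.16, with no call by edgeR or DESeq2 and 1 gene at an unadjusted p under 0.05. Of these 30, 28 were below 0 and 11 had no overlap on the lower side. By library their median difference was -0.05, -0.16 and -0.29 in treated replicates 1, 2 and 3. In aged control replicates 1, 2 and 3 it was -0.01, 0.08 and -0.07, so treated replicate 1 lay within the control range. The 20 genes of mitochondrial biogenesis and mitophagy had a median of -0.01, with no call by edgeR, 5 genes at an unadjusted p under 0.05 and 1 called higher by DESeq2, and Ppargc1a, the co-activator of biogenesis, had a log2 fold change near 0 (0.17 ± 0.09, adjusted p = 0.266). The paraoxonases, lipolactonases of which Pon2 is found in mitochondria, were called neither by edgeR nor by DESeq2, with 0 of 3 at an unadjusted p under 0.05. Pon2 was at 75.3, 67.1 and 63.4 CPM in treated libraries, against 69.4, 71.1 and 67.4 CPM in aged controls (-0.02 ± 0.08, adjusted p = 0.928). Pon1 and Pon3 were at -0.23 ± 0.24 and 0.08 ± 0.14.

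Of the 25 genes of RPE identity and the visual cycle none was called by edgeR, 6 had an unadjusted p under 0.05 and DESeq2 called 1 higher; the median was -0.24. By library the median was 0.06, -0.50 and -0.27 in treated replicates 1, 2 and 3. Without treated replicate 1, 5 of the genes were called lower, and without treated replicate 3, 2 were called higher. Over all tested genes these fits called 634 and 4092. Trpm3, an abundant cation channel gene of the RPE, was at 5177, 2094 and 5570 CPM in treated libraries, against 6264, 6596 and 5881 CPM in aged controls. Ttr, the gene of the retinol carrier transthyretin, was at 2274, 1294 and 1539 CPM in treated libraries, against 2258, 2510 and 2082 CPM in aged controls. Of 20 genes of melanogenesis and melanosomes, Rab38 and Slc24a5 were called lower, beside 1.97% of all tested genes. Slc24a5, a melanosomal ion exchanger gene, was at 270, 229 and 260 CPM in treated libraries, against 329, 329 and 310 CPM in aged controls (-0.35 ± 0.08, adjusted p = 0.0471), and its difference held in none of the treated libraries at 1.5-fold. It was called in 2 of the 9 fits without 1 library, those without treated replicates 1 and 3. Of the 24 complement genes Masp1, a protease of the lectin pathway, was called higher (0.81 ± 0.20, adjusted p = 0.0488), also in 3 of the 9 fits without 1 library. Over all tested genes edgeR called 2.37% higher. C3, the central component, was at 50.2, 96.0 and 36.0 CPM in treated libraries, against 46.1, 46.7 and 41.8 CPM in aged controls (adjusted p = 0.424).

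**Figure D4:**
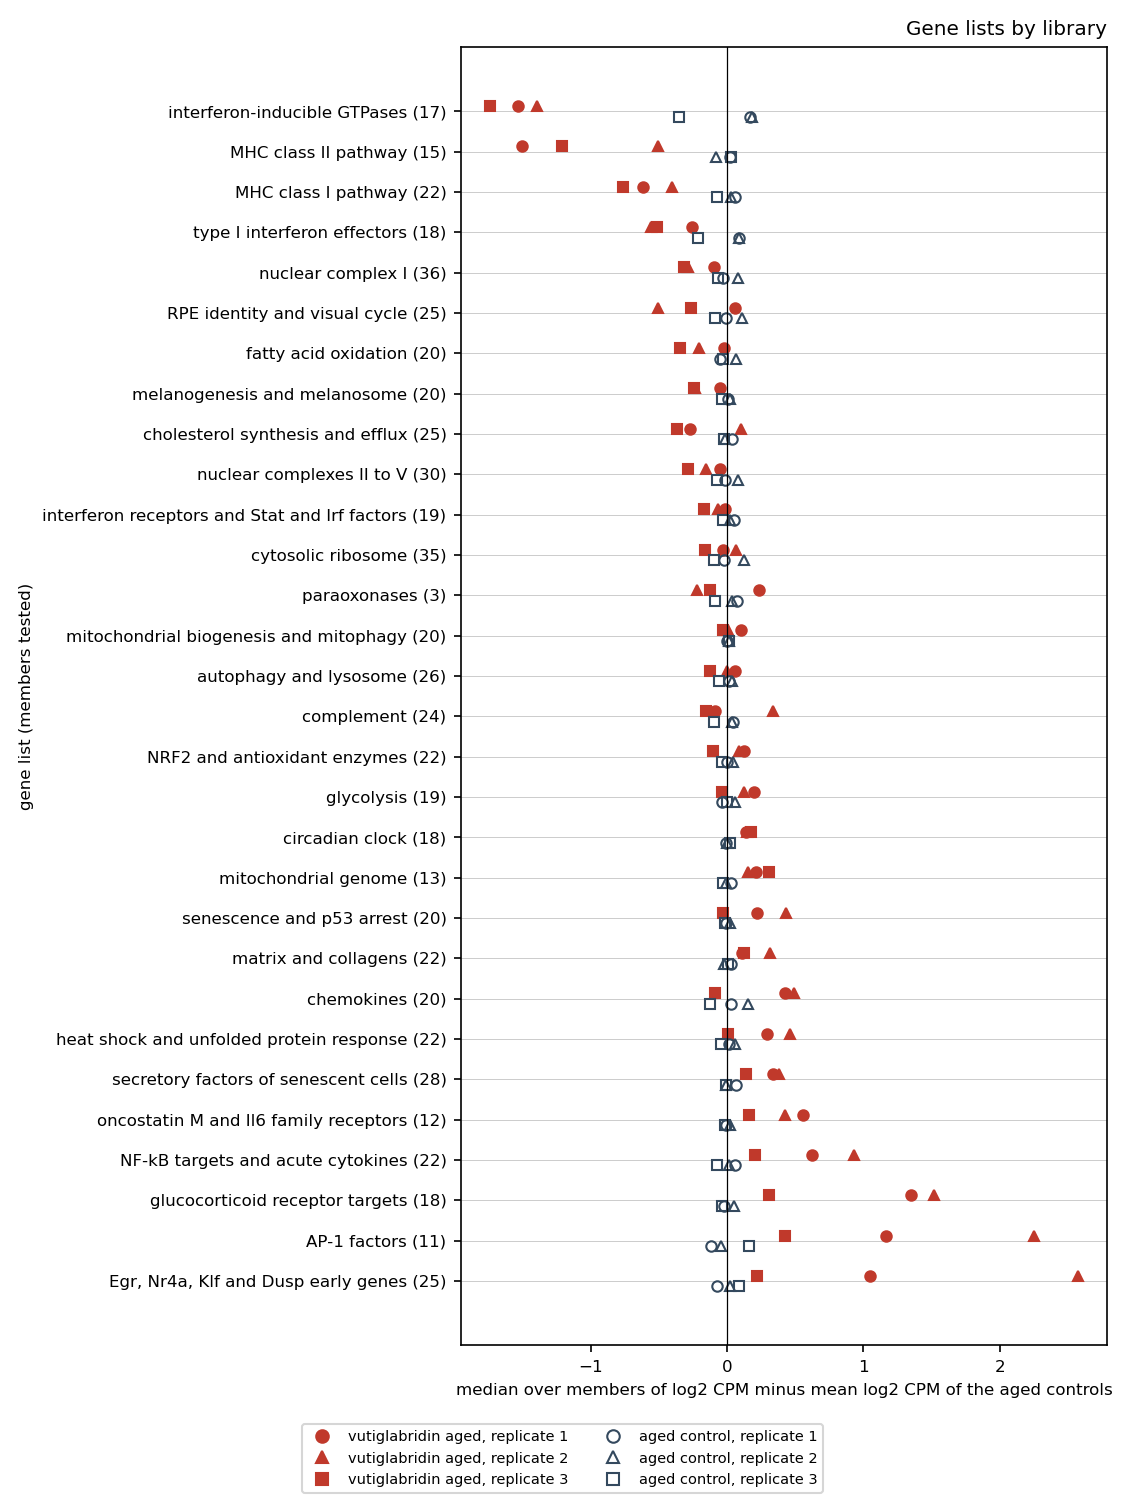
Median over the members of each gene list of log2 CPM minus the mean log2 CPM of the aged controls, for each treated library (filled) and each aged control library (open). The interferon-inducible GTPases lie at -1.53, -1.40 and -1.74 in treated replicates 1, 2 and 3, while the early gene lists are spread out, from 0.22 to 2.57 for the Egr, Nr4a, Klf and Dusp genes.

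Metabolic and stress genes were called singly. Of 22 NRF2 targets and antioxidant enzymes, Txnrd1 and Slc7a11 were called higher. Slc7a11, the cystine transporter, was at 133, 81.8 and 45.9 CPM in treated libraries, against 31.4, 24.8 and 31.7 CPM in aged controls (1.57 ± 0.35, adjusted p = 0.0452). Of 19 glycolysis genes, Hk2 and Pfkfb3 were called higher; Hk2, a hexokinase, was at 59.0, 116 and 43.4 CPM in treated libraries, against 26.4, 26.6 and 28.3 CPM in aged controls (1.43 ± 0.30, adjusted p = 0.0387). Over all tested genes 2.37% were called higher, and single calls in lists of 25 or 26 genes are near that share. Abca1, the cholesterol exporter, was called higher among 25 genes of cholesterol synthesis and efflux, and Ulk1, the kinase that starts autophagy, among 26 genes of autophagy and lysosome. Without aged control replicate 1, 2 or 3, none of these 6 genes was called by edgeR. Of 22 heat shock and unfolded protein response genes none was called by edgeR in the comparison of the groups, 9 had an unadjusted p under 0.05 and DESeq2 called 6 higher. Without treated replicate 3 edgeR called 10 of them higher, in a fit that called 15.9% of all tested genes. The 20 genes of fatty acid oxidation had a median of -0.19 and no call by edgeR, with 8 at an unadjusted p under 0.05 and 2 called lower by DESeq2. The 35 genes of the cytosolic ribosome had a median of -0.03, no call by either tool and 0 at an unadjusted p under 0.05. Neat1, a long noncoding RNA that builds nuclear paraspeckles, was at 1841, 2090 and 699 CPM in treated libraries, against 426, 413 and 469 CPM in aged controls (1.82 ± 0.35, adjusted p = 0.0304), and stayed called in the fits without treated replicate 3 or young control replicate 1 alone. Slco1c1, a thyroid hormone transporter gene, was at 69.6, 61.6 and 57.0 CPM in treated libraries, against 140, 200 and 138 CPM in aged controls (-1.34 ± 0.20, adjusted p = 0.0148), and lost its call without aged control replicate 1 or 2. Both were named after their values were seen.

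Markers of other tissue were spread widely among the treated libraries. The 18 rod markers summed to 984, 1148 and 1490 CPM in treated libraries, against 888, 940 and 1015 CPM in aged controls; the list median was -0.21, 0.68 and 1.37 in treated replicates 1, 2 and 3. No member was called by edgeR, 2 had an unadjusted p under 0.05 and DESeq2 called 1 higher. With the mean rod level as a covariate, 659 genes were called in place of 1098, among them 14 of the 17 interferon-inducible GTPases. Haemoglobin and other erythroid genes summed to 139, 5211 and 685 CPM in treated libraries, against 274, 346 and 243 CPM in aged controls. Markers of stratified epithelium, such as conjunctiva and cornea, summed to 154, 640 and 213 CPM in treated libraries, against 126, 132 and 160 CPM in aged controls. Skeletal muscle markers summed to 1763, 2410 and 579 CPM in treated libraries, against 695, 1569 and 1350 CPM in aged controls. Treated replicate 2, highest in the early gene medians, was also highest in these erythroid, epithelial and muscle sums. Treated replicate 3, lowest in the early gene medians, was lowest in muscle and highest in rods. Treated replicate 1, between them in the early gene medians, was also between them in muscle, above all 3 aged controls, and lay below all 3 in erythroid markers. The part of these tissues in the results was not tested. Gfap, the glial filament gene, was at 30.7, 12.8 and 60.1 CPM in treated libraries, against 21.6, 33.2 and 30.2 CPM in aged controls (adjusted p = 0.785).

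**Figure D5:**
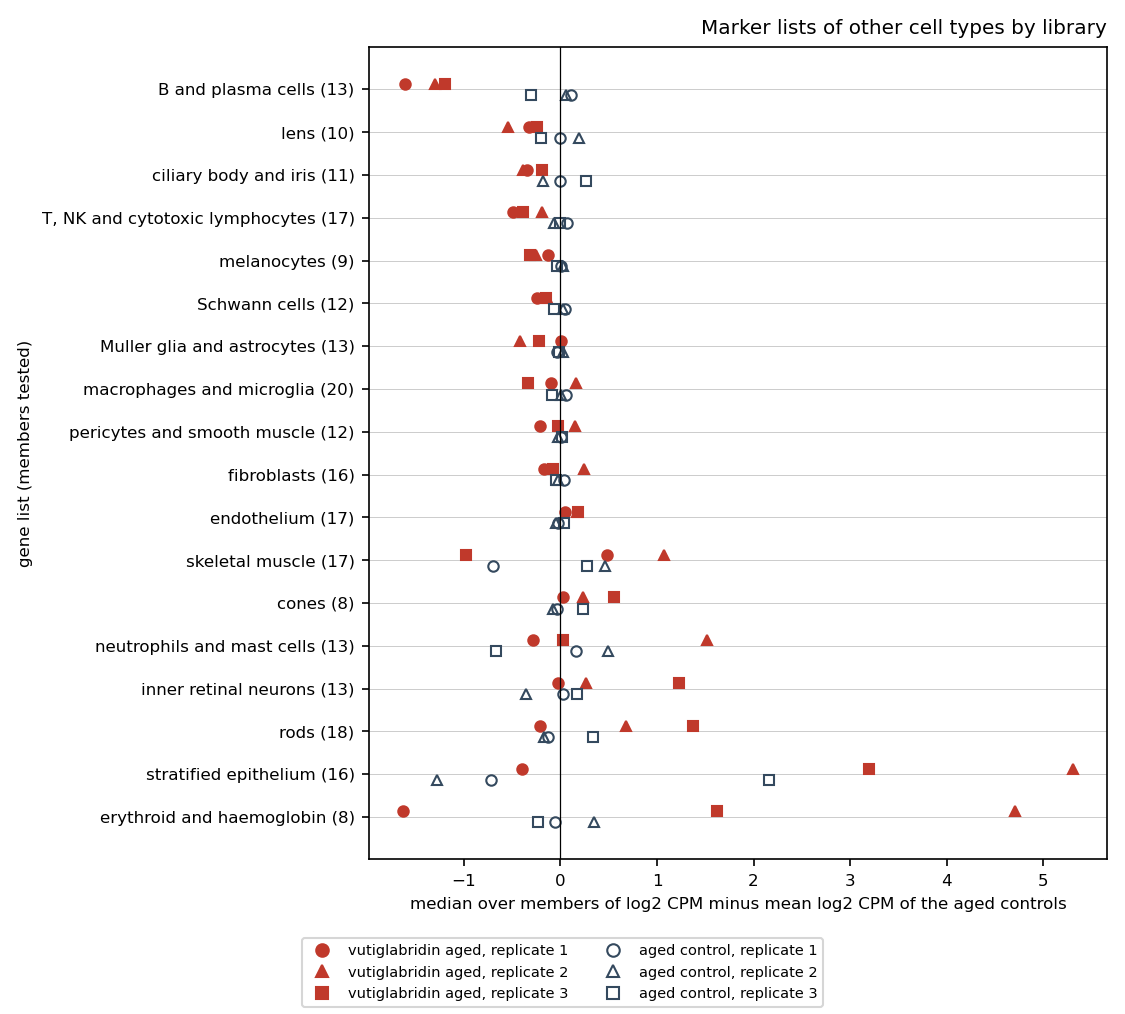
Median over the members of each marker list of other cell types of log2 CPM minus the mean log2 CPM of the aged controls, for each treated library (filled) and each aged control library (open). Stratified epithelium and erythroid markers lie far apart among the treated libraries, and B and plasma cell markers lie at -1.61, -1.30 and -1.19 in treated replicates 1, 2 and 3.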

How the data were processed

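Stranded total RNA libraries were made from TRIzol-extracted RNA, per the labels. Per the submitters' processing notes, the authors used Bowtie2 2.3.4.1, featureCounts 1.6.0, DESeq2 and the build GRCm38; whether counting used strand is not given in the sources used here. The deposited table holds a raw count and an FPKM value per gene and library, per the file headers; FPKM was not used. Its chromosome versions are those of GRCm39, so its coordinates are given as deposited, while promoter sequences come from RefSeq on GRCm38.p6, with no conversion.

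Genes were filtered with filterByExpr on 3 groups, scaled by TMM and fitted over all 9 libraries by edgeR 4.0.16 (quasi-likelihood, robust) in R 4.3.3, with Benjamini-Hochberg adjustment over 25273 genes; called means by this test unless DESeq2 is named. Each SE was derived from the fold change and F statistic. CPM use TMM-scaled library sizes, and log2 CPM a prior count of 2. A deposited span that overlaps another gene can share its reads (551 of the 1098 called genes). Not every named gene with such an overlap is marked in the text. Tgtp1, Slc24a5, Stat3, Tnfrsf12a, Il1r2 and Ly6i are among those left unmarked. The fit was also run on simulated data with the same spread in every group. That run cannot speak to the wider spread of the treated group here.

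The comparison, the 48 gene lists and the rules for named genes were chosen with earlier results of these data known. The rules took, among called genes other than provisional gene models, the 12 largest rises and falls that held in each treated library with at least 1 CPM, up to 4 genes of smallest p per list, genes of prior interest, up to 4 genes with the largest gap per treated library, and 6 large changes that did not hold throughout; not all are named in the text. Other members of the lists given in the text were chosen after their values were seen. Alternatives were other size factors, filters, DESeq2 1.42.0, only the aged libraries, a replicate block, a rod covariate, non-overlapping genes, another threshold, and libraries left out. Some results are not reported here.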

Additional observations from a re-analysis of the deposited data

How the results depend on the processing

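The 1098 called genes kept their fitted direction in every alternative in which they were tested. Since none of them overlapped between the groups, this was nearly fixed in advance. The number of called genes did not stay. With 1 library left out, it ranged from 25 to 4092 (10 to 2259 higher, 15 to 1833 lower). DESeq2 called 3085 genes (1862 higher, 1223 lower), with 6354 at an unadjusted p under 0.05 against 6246 in edgeR. Only the 6 aged libraries gave 178 (111 higher, 67 lower). Genes that overlap no other gene gave 611 (320 higher, 291 lower), where fewer genes were tested. The rod covariate gave 659 (396 higher, 263 lower). Keeping genes with 1 CPM or more in 3 libraries gave 1034 higher and 512 lower genes, and an adjusted p under 0.10 gave 3006 (1615 higher, 1391 lower). Relative log expression gave 692 higher and 463 lower, upper quartile scaling 729 and 460. Without treated replicate 2 and young control replicate 1 there were 892 called genes (436 higher, 456 lower). Of the called genes, 72 higher and 76 lower held in all treated libraries at 2-fold, and 599 and 499 with no fold minimum. The causes were not tested.

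The replicate numbers did not pair the libraries: same-numbered libraries correlated between -0.08 and 0.15 in their deviations from group means. With the replicate number as a block, 317 genes were called (165 higher, 152 lower).

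Some uncalled genes changed sign. Pon2 was at 0.00495 with DESeq2, 0.0167 with 1 CPM or more, 4.4e-06 among non-overlapping genes, 0.0041 with the 6 aged libraries, 0.00524 with relative log expression and 0.0592 with the rod covariate. Rpe65 was at -0.00175 with no filter and -0.00349 with the replicate block. Without both treated replicate 2 and young control replicate 1, Pon1 was at 0.0089, C3 at -0.0595 and Apol11b at -0.94. Esrrb was at -0.40 with the rod covariate. With 1 library left out, the log2 fold change ranged from -0.0909 to 0.0429 for Pon2, with 0.00644 and 0.0021 without aged control replicate 2 and treated replicate 2. It ranged from -0.155 to 0.0974 for Rpe65, with -0.0593 without aged control replicate 3. The ranges were -0.539 to 0.0123 for Pon1, -0.0994 to 0.213 for Pon3, -0.0558 to 0.707 for C3, -0.377 to 0.682 for Gfap, -0.96 to 4.63 for Apol11b, -0.0614 to 1.97 for Lars2, -0.24 to 1.17 for Nrxn3 and -0.077 to 1.11 for Adgrb3.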
